A study of Arabidopsis thaliana with 12 samples.

Results

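The genes described are the photoperiod arm of the flowering pathway in Arabidopsis thaliana, read in the order in which the pathway runs: GI (AT1G22770), FKF1 (AT1G68050), CDF1 (AT5G62430), FT (AT1G65480) and SOC1 (AT2G45660). They were chosen by locus, as 5 of the 4018 genes that have an entry in any of 4 tables of the authors' own comparisons. The tables come from polyadenylated RNA of whole seedlings, 4 libraries each of the picln-1 mutant, the prmt5-5 mutant and wild type (WT), grown for 10 days at 22 °C. All 12 libraries had 12 h of light and 12 h of darkness, with 9 days of that regime named as the treatment. The design line of the series speaks of cold treatment instead, while no sample label names one; the sample labels are followed here, and the files cannot settle which holds. The sample titles begin with Col for WT and with line codes that are not explained for the mutants. The labels name no other allele or agent and do not say how either mutant line was made, and they give no hour of harvest. Each mutant is a single line, so the named mutation cannot be told apart from anything else that sets the line off from WT.

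As background, GI is a large clock-controlled protein that binds the blue-light receptor and F-box protein FKF1 late in the day, and the pair marks CDF1 for breakdown. CDF1 is a Dof-type repressor of the flowering genes CO and FT. FT is the mobile flowering signal made in leaf veins, and SOC1 is a MADS-box integrator that FT switches on at the shoot apex. Transcripts of GI, FKF1, CDF1 and FT rise and fall over the day. The mutated genes act elsewhere: pICln is a chaperone of spliceosome assembly and PRMT5 an arginine methyltransferase that modifies Sm proteins of the spliceosome.

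The sequences that matter most to what follows are those of FKF1. Its only intron, 101 bases in the coding sequence, is the single intron of the 5 genes that the authors list, and it is listed in both mutants. The intron is printed with 20 exon bases on each side (TAIR10.1, chr1:25508989-25509129, plus strand). Capitals mark 9 bases at the 5′ splice site (3 exon bases and 6 intron bases), the first in-frame stop codon inside the intron, and the end of the intron with 1 exon base.
FKF1 intron: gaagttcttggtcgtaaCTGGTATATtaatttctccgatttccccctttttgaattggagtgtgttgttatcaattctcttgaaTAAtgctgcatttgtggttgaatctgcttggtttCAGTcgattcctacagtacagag
Read on from the 272 coding bases before it, the retained intron meets a TAA at intron base 65, which is codon 113. The annotated FKF1 protein has 619 residues. The length of the intron is not a multiple of 3, since 2 bases are left over after whole codons.

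In TAIR10.1, GI lies on chromosome 1 (8061751 to 8067790, plus strand) with 13 introns, and FKF1 on chromosome 1 (25508639 to 25510907, plus strand) with 1. CDF1 lies on chromosome 5 (25069093 to 25071111, minus strand) with a single intron of 593 bases. FT lies on chromosome 1 (24331373 to 24333999, plus strand) with 3 introns, and SOC1 on chromosome 2 (18807505 to 18811125, minus strand) with 6 in its first annotated transcript. Together they hold 25 distinct annotated introns, and 24 of them were in neither table of gene bins. Bins are the pieces into which annotated splice sites cut a gene, such as 1 intron or 1 exon, each counted by itself. To see whether the letters at the 5′ splice site set the FKF1 intron apart, each intron that begins with GT was scored in bits against all 131804 such introns of the annotation, where a higher score means a closer match to the usual letters. FKF1 scored 7.71 bits, which is higher than 61.4% of annotated introns, and 15 of the other 23 scored introns of these genes were lower. Its length of 101 bases equals the median length of annotated introns. The FT and CDF1 introns are shown for comparison, with the 6 first intron bases in capitals after 3 exon bases.
FKF1 intron 1: ctgGTATATtaattt
CDF1 intron 1: aagGTACTCattatt
FT intron 1: ttgGTTCTTtcactt
FT intron 2: ttgGTTTGTgcacta
FT intron 3: ttgGTGAGTtttatt
The weakest of these by score was FT intron 1 at 3.62 bits, higher than 7.84% of annotated introns, and it was not listed. CDF1 intron 1 scored higher than 48.5% of annotated introns. The listed intron had neither the weakest 5′ splice site nor the greatest length of the set. An intron with no entry missed a limit or was not tested, and FT may have had few reads in prmt5-5, where it fell steeply. Whether splice-site letters or length bear on the listing was not tested.

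**Figure D1:**
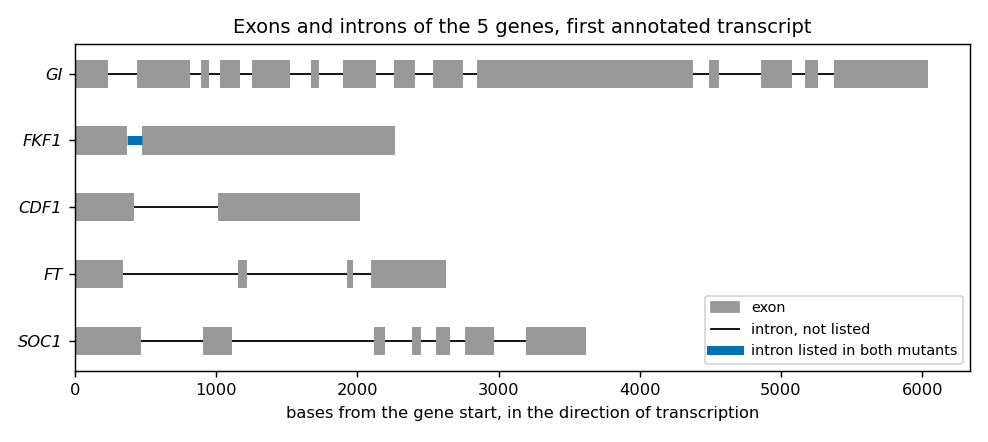
Exons (grey boxes) and introns (lines) of GI, FKF1, CDF1, FT and SOC1 in bases from each gene's start, for the first annotated transcript. The thick blue line is the FKF1 intron of 101 bases, the one intron of these genes listed in both mutants.

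The upstream sequences of GI and FKF1 are shown because the evening element, AAAATATCT, marks many genes that the clock drives late in the day, and both genes were higher in prmt5-5. Whether the element bears on either rise was not tested. The window of 1000 bases was chosen after seeing the data, and the planned one ran from 250 bases before to 50 after the start. Within 1000 bases before the gene start, searched on both strands, GI held 3 copies, starting at -809, -777 and -591, and FKF1 held 2, at -373 and -186. A further FKF1 copy starts at base 1 of the gene and so lies outside that window. No copy was found in the 1000 bases before CDF1, FT or SOC1, which says only that those letters are not in it. Of 27443 protein-coding genes with a full window, 7.24% held at least 1 copy. Within 250 bases before to 50 after the start, 2.82% did, FKF1 among them with the copies at -186 and at base 1, and GI not. The stretches with the elements are printed from TAIR10.1, with the elements in capitals, GI at chr1:8060921-8061180 and FKF1 at chr1:25508246-25508473, both on the plus strand.
GI upstream: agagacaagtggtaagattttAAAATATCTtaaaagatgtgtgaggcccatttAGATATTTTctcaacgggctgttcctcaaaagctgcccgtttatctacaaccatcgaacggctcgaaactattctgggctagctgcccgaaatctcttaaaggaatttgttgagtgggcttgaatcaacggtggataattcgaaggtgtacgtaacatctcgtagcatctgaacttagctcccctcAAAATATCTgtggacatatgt
FKF1 upstream: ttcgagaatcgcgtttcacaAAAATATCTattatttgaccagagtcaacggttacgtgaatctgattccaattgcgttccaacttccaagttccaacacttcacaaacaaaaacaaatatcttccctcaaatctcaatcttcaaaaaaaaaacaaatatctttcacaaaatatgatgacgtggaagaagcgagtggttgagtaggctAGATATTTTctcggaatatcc
The related CCA1-binding site, AAAAATCT, was found in the 1000 bases before FT, at -963, and before SOC1, at -163, both on the strand opposite to the gene, and 21.1% of all windows held it on either strand. The G-box, CACGTG, was in none of these 5 windows, against 14.8% of all. The Dof core, AAAG, which CDF1-type proteins bind, was in nearly every window of the genome (99.996%), so its presence before FT sets nothing apart.

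**Figure D2:**
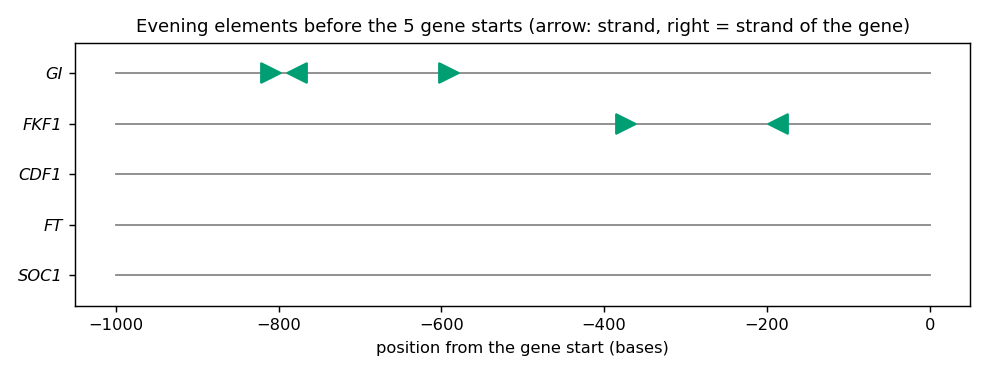
Copies of the evening element in the 1000 bases before the gene starts of GI, FKF1, CDF1, FT and SOC1, on an axis of bases from the start. The window was chosen after seeing the data. Arrows that point right are on the strand of the gene; GI has 3 copies, FKF1 has 2, and the other genes have none.

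The data behind the values are limited in the same way throughout. The authors list a gene when its adjusted p was below 0.05, and the smallest change among listed genes was 0.58 on the log2 scale in either table. They list a bin when its adjusted p was below 0.15 and its fraction moved by more than 5 percentage points. A gene with no entry missed the limit on p, changed by less, or was not tested, and no value for it exists here. The tables hold no value per library and no standard error, and depth is unknown. An approximate standard error was therefore taken as the size of a log2 change divided by the normal quantile of its deposited p. The labels do not say that the libraries came from separate cultures, so p may reflect only technical spread among them, and the marker genes of seedling tissues cannot be checked in tables that hold only changed genes. The check that could be made on the labels was of the mutated genes: the pICln transcript was 11.2-fold lower in picln-1, by the authors' deposited table, and a PRMT5 intron was retained in 0.870% of junction reads in picln-1 and 81.0% in prmt5-5, against 0% in WT, by the authors' deposited table.

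The comparison of prmt5-5 with WT asks how the flowering genes stood in the methyltransferase mutant. Transcripts of the upstream pair GI and FKF1 rose, and those of CDF1 and of the output genes FT and SOC1 fell. GI and FKF1 act on CDF1 protein, which was not measured. All 5 genes were listed, against 9.14% of the 16747 genes tested (4.99% listed as higher and 4.15% as lower). The genes were picked with such results known, so nothing is read from that count.

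GI had the largest rise of the 5. It was 2.58-fold higher in prmt5-5 than in WT (log2 change 1.37, approximate SE 0.0941, adjusted p = 1.27e-45, from the authors' deposited table). By size this was the 94th of 836 listed rises, and by p it was the 92nd of all genes tested. FKF1 rose less, by 1.62-fold (log2 change 0.70, approximate SE 0.0851, adjusted p = 6.52e-15, from the authors' deposited table). That lies below the median listed rise of 1.75-fold, at place 558 of 836. The 2 approximate 95% intervals, 1.18 to 1.55 for GI and 0.53 to 0.86 for FKF1 on the log2 scale, do not overlap.

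CDF1, the repressor whose protein GI and FKF1 act on, was 1.54-fold lower in transcript in prmt5-5 (log2 change -0.63, approximate SE 0.162, adjusted p = 0.000552, from the authors' deposited table). It had the largest p of the 5, with an approximate 95% interval of -0.95 to -0.31 and place 3402 by p among the genes tested. Its close relative CDF3, another Dof-type repressor, went the other way, with a rise of 1.61-fold in prmt5-5 (log2 change 0.68, adjusted p = 7.31e-13, from the authors' deposited table). The other 3 Dof genes of that group were not listed.

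FT fell further than any other gene listed in prmt5-5 (log2 change -8.88, adjusted p = 3.66e-42, from the authors' deposited table). The next deepest fall in the authors' deposited table was a log2 change of -4.25. How many FT reads lay behind the fitted value in prmt5-5 is unknown, so it is not turned into a fold change and carries no interval. By p, FT stood at place 101 of the genes tested. SOC1 fell by 1.76-fold (log2 change -0.82, approximate SE 0.135, adjusted p = 1.74e-08, from the authors' deposited table), a fall near the median listed one of 1.71-fold. In whole seedlings, fewer cells that make a transcript and less transcript per cell cannot be told apart, which bears on FT because it is made in leaf veins.

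The comparison of picln-1 with WT asks the same of the chaperone mutant. CDF1 fell, and it was the only 1 of the 5 genes listed for expression, against 1.69% of the 16473 genes tested (0.996% listed as lower). It was 1.83-fold lower in picln-1 (log2 change -0.87, approximate SE 0.167, adjusted p = 9.32e-06, from the authors' deposited table), close to the median listed fall of 1.74-fold. GI, FKF1, FT and SOC1 were not listed in picln-1. Whether their changes differ between the mutants was not tested, because no value exists for them in picln-1.

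CDF1 is the member whose expression can be set side by side in both mutants. Its log2 change was -0.87 in picln-1 and -0.63 in prmt5-5 in the authors' deposited table, with the same WT libraries in both comparisons. The difference, picln-1 minus prmt5-5, was -0.25 with an approximate 95% interval of -0.70 to 0.21. The variances were added although the WT libraries are shared, which makes that interval too wide rather than too narrow. If the deposited p are read against a t distribution with 6 degrees of freedom instead, the interval is -0.44 to -0.06. With so few degrees of freedom, a p as small as that of GI in prmt5-5 (6.99e-48, authors' test) could hardly arise. That reading is therefore a poor guide, and a further fall of CDF1 in picln-1 is not shown. Of the 122 genes listed for expression in both mutants, the 5 nearest to CDF1 in the plane of the 2 log2 changes were GLP8 (AT3G05930), a germin-like protein gene, AT1G80320, the cytochrome P450 gene CYP71B19 (AT3G26170), AT3G61898 and the nudix hydrolase gene NUDX26 (AT3G10620). They lay within 0.12 of it on the log2 scale. GLP8, the nearest, changed by -0.90 in picln-1 and -0.58 in prmt5-5 in the authors' deposited table. This likeness rests on 2 values that share their WT libraries.

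**Figure D3:**
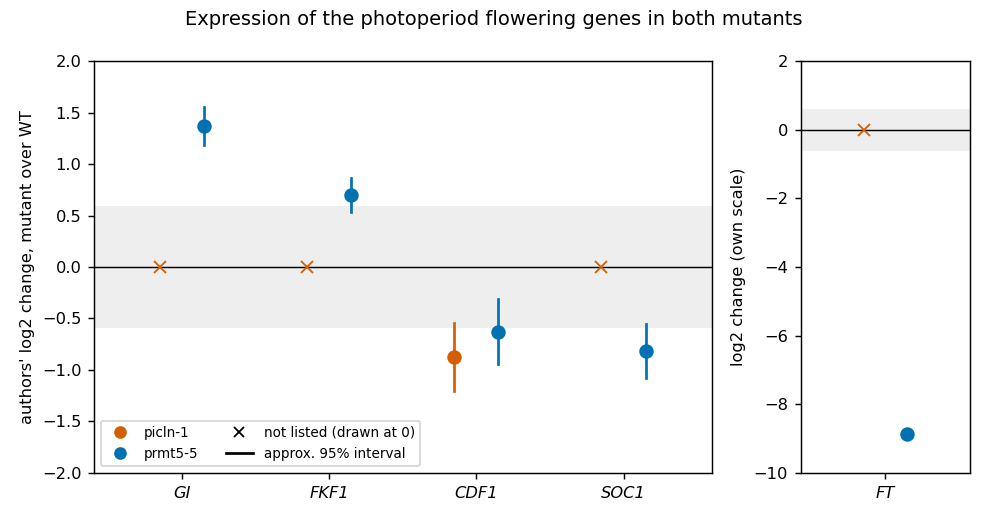
Authors' log2 change of mutant over WT for GI, FKF1, CDF1 and SOC1 (left) and FT on its own scale (right), with picln-1 left of prmt5-5 for each gene. Bars are approximate 95% intervals, crosses at 0 are genes not listed, and the grey band spans changes smaller than the smallest listed one; in prmt5-5 GI and FKF1 lie above 0 while CDF1, SOC1 and FT lie below it.

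Splicing was compared through the bin tables, which give for each bin how large a part of its junction reads kept the intron, or held the exon piece, as 1 pooled value per genotype. FKF1 retained its intron, shown above, more often in both mutants: in 18.7% of junction reads in picln-1 and 32.5% in prmt5-5, against 7.89% in WT, by the authors' deposited table. The spliced share was thus 81.3% in picln-1 and 67.5% in prmt5-5, against 92.1% in WT. In these pooled values picln-1 lay between WT and prmt5-5. The values carry no error of their own, and both mutants are set against the same WT libraries, so the order is only descriptive.

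The authors' test on usage of the FKF1 intron gave a log2 change of 1.93 in prmt5-5 (approximate SE 0.365, adjusted p = 9.08e-06, from the authors' deposited table). In picln-1 the log2 usage change was 1.33 (approximate SE 0.406, adjusted p = 0.0982, from the authors' deposited table). The call in picln-1 therefore rests on the authors' limit of 0.15 and does not hold at 0.05. The difference in log2 usage, picln-1 minus prmt5-5, was -0.60 with an approximate 95% interval of -1.67 to 0.47, too wide for the same reason as for CDF1. With the t distribution, the poorer guide as said for CDF1, the interval was -1.17 to -0.02. FKF1 was the 1 gene of the 5 with a listed bin in either table. Genes with a listed bin came to 2.85% of the genes tested for expression in picln-1 and 15.5% in prmt5-5, so nothing is read from that count. Counted by bins, 0.479% of 112984 were listed in picln-1 and 2.88% of 118209 in prmt5-5.

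Against the other introns that the authors list, the FKF1 change was near the median in picln-1 and above the upper quartile in prmt5-5. In picln-1 it rose by 10.8 percentage points, place 215 of the 443 listed introns whose fraction rose, whose median rise was 10.6 points. In prmt5-5 it rose by 24.6 points, place 498 of 3191, where the median rise was 11.6 points and the upper quartile began at 18.7 points. The FKF1 intron also began from a higher level, since the WT median of the rising introns was 4.26% in the picln-1 table and 2.36% in the prmt5-5 table.

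**Figure D4:**
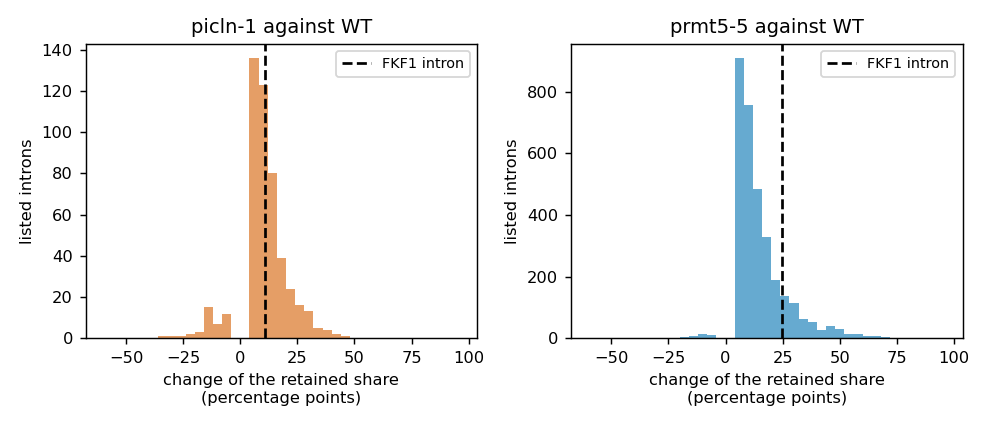
Number of listed introns by the change of their retained share, mutant minus WT in percentage points, in picln-1 (left) and prmt5-5 (right). The dashed line is the FKF1 intron, at 10.8 points in picln-1 and 24.6 points in prmt5-5; the gap around 0 is the authors' limit of 5 points.

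FKF1 was thus the 1 gene of the 5 listed for both measures, with more transcript and more retained intron in prmt5-5. GI, CDF1, FT and SOC1 were listed for expression in prmt5-5 with none of their bins listed. A bin with no entry missed a limit or was not tested, so this does not show unchanged splicing. In prmt5-5, genes with a listed bin came to 15.5% of the genes tested for expression, so a gene without one is the usual case. For FT, the number of reads in prmt5-5 is unknown. The annotated 3′ end of FKF1 overlaps the neighbouring gene MAP70-1 (AT1G68060) by 21 bases, and no other member overlaps a gene. MAP70-1 was not listed for expression, and it had 1 listed intron in prmt5-5, retained in 9.26% of prmt5-5 junction reads against 1.29% in WT, from the authors' deposited table. SOC1's coding neighbour AT2G45670 likewise had 1 listed intron in prmt5-5, at 6.14% in prmt5-5 against 1.02% in WT, from the authors' deposited table.

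Around the 5 genes, 65 further genes of the pathway were read in 8 groups by role, together 70 genes. In picln-1, 2 of the 65 were listed for expression, 1 higher and 1 lower, which is 3.08% against 1.69% of all genes tested. In prmt5-5, 5 of the 65 were listed, all 5 higher, which is 7.69%. Of all genes tested, 9.14% were listed in either direction and 4.99% as higher, and no excess is read from so few genes. The median log2 change of those 5 was 0.76, against 0.80 for all listed rises. CO, the direct activator of FT that CDF1 represses, was in none of the tables, nor were the phytochrome and cryptochrome receptor genes PHYA, PHYB, CRY1 and CRY2.

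Upstream, in the clock group of 16 genes, none was listed for expression in picln-1, against 1.69% of all genes tested. In prmt5-5, 3 of the 16 were listed, all higher, which is 18.8% against 4.99% of all genes tested listed as higher; no excess is read from so few genes. PRR7, a daytime repressor of the clock, rose by 2.95-fold (log2 change 1.56 in the authors' deposited table), a larger rise than that of GI. The coactivators LNK1 and LNK2, which help to switch on afternoon and evening genes, rose by 1.70-fold and 1.69-fold in prmt5-5 (log2 changes of 0.76 each in the authors' deposited table).

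Among the genes that hold down FT and SOC1, the floral repressor FLC fell in picln-1 (log2 change -3.74, adjusted p = 7.29e-50, from the authors' deposited table). FLC had no entry in prmt5-5, so no value for it exists there. Whether FLC or any other repressor bears on the fall of FT and SOC1 in prmt5-5 was not tested. TOE2, an AP2-like repressor of FT, rose by 1.56-fold in prmt5-5 (log2 change 0.64, adjusted p = 5.00e-19, from the authors' deposited table). SVP, TEM1 and TEM2, further repressors of FT, were in none of the tables. Downstream, SPL3, a promoter of flowering in the meristem, rose in picln-1 (log2 change 0.58, adjusted p = 0.0289, from the authors' deposited table). The meristem identity genes AP1, LFY and FUL were not listed.

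Splicing was read over the same 70 genes. In prmt5-5, 12 of the 70 genes had a listed bin, 17.1% against a background of 15.5% (genes with a listed bin over genes tested for expression). In picln-1, 6 of 70 did, 8.57% against 2.85%. The genes were picked with earlier results of these data known and were not matched to others for their number of introns or reads, so no excess is read from these shares.

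Beside FKF1, the group of its own relatives had 1 more entry. ZTL, an F-box protein of the same family, retained its intron in 8.51% of prmt5-5 junction reads against 16.8% in WT, while its log2 usage change was 0.49 (adjusted p = 0.146, from the authors' deposited table). Usage and fraction thus went in opposite directions for ZTL, which happened in 5 of the 3232 listed introns of prmt5-5 and 1 of the 485 of picln-1. No direction is given for ZTL for that reason.

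Of the genes that set the level of CO protein or transcript, COP1, SPA3 and FBH1 had an intron listed in prmt5-5, 3 of 12 genes, or 25% against 15.5% of all genes. COP1, the ubiquitin ligase that breaks down CO in darkness, retained intron 11 of 12 in 14.9% of prmt5-5 junction reads against 2.29% in WT (adjusted p = 1.14e-05, from the authors' deposited table). SPA3, a partner of COP1, had 20.3% in prmt5-5 against 7.69% in WT (adjusted p = 0.142, from the authors' deposited table). FBH1, an activator of CO, had 9.57% in prmt5-5 against 3.16% in WT (adjusted p = 0.0522, from the authors' deposited table). Of the 3, COP1 alone would be listed at an adjusted p below 0.05.

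Of the 15 repressors of FT and SOC1, 4 had a listed bin in prmt5-5, which is 26.7% against 15.5% of all genes, and 1 had in picln-1, which is 6.67% against 2.85%. They had 7 bins in prmt5-5, of which 3 were in TOE1 and 2 in MAF1. In MAF1, a relative of FLC, intron 2 of 6 was retained in 85.4% of prmt5-5 junction reads against 26.1% in WT (adjusted p = 2.29e-10, from the authors' deposited table). An exon part of MAF1, 81 bases long, is annotated as a retained intron. It was kept in 17.0% of prmt5-5 junction reads against 25.1% in WT (adjusted p = 0.0388, from the authors' deposited table). The AP2-like repressors SMZ and SNZ also retained an intron more often in prmt5-5, SMZ in 6.34% against 0.518% in WT and SNZ in 31.5% against 15.2% in WT, by the authors' deposited table. TOE1, of the same AP2-like family, had 2 listed bins in picln-1 and 3 in prmt5-5. Its exon part of 45 bases, annotated as a skipped exon, was included in 10.1% of junction reads in picln-1 and 14.5% in prmt5-5, against 1.79% in WT, by the authors' deposited table. A second TOE1 intron, 82 bases long, was listed in prmt5-5 alone, at 6.18% in prmt5-5 against 0.690% in WT, from the authors' deposited table.

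The TOE1 intron next to that exon part was among those in which usage and fraction disagreed. Its log2 usage change was 1.37 in picln-1 and 2.20 in prmt5-5 in the authors' deposited table. Its retained fraction was 25.8% in picln-1 and 35.6% in prmt5-5, against 44% in WT, by the authors' deposited table. It is the 1 such intron of the picln-1 table, and with ZTL it makes up 2 of the 5 in the prmt5-5 table.

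In the clock group, 4 of the 16 genes had a listed bin in picln-1, which is 25% against 2.85% of all genes. In prmt5-5, 3 of the 16 had, which is 18.8% against 15.5%, and no excess is read from so few genes. PRR3, a partner of TOC1, retained its 5′ UTR intron in 43.4% of junction reads in picln-1 and 44.7% in prmt5-5, against 23.5% in WT, by the authors' deposited table. PRR3 had 1 further intron listed in picln-1, at 12.8% in picln-1 against 5.26% in WT, and another in prmt5-5, at 7.89% in prmt5-5 against 0.422% in WT, by the authors' deposited table. An alternative 3′ splice site of PRR3 that adds 7 bases was also listed in prmt5-5, used in 54.1% of prmt5-5 junction reads against 43.8% in WT (adjusted p = 0.131, from the authors' deposited table). ELF3, a part of the evening complex that represses GI, went the other way in both, with intron 2 of 3 retained in 28.0% in picln-1 and 30.4% in prmt5-5, against 40.7% in WT, by the authors' deposited table. The ELF3 entry in prmt5-5 had an adjusted p of 0.0869, from the authors' deposited table. TOC1 intron 4 of 5 and an intron of BOA were listed in picln-1, at 29.8% in picln-1 against 8.55% in WT and 9.92% in picln-1 against 2.39% in WT, by the authors' deposited table. RVE4 was listed in prmt5-5, with intron 7 of 8 at 10.1% in prmt5-5 against 1.82% in WT, from the authors' deposited table.

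**Figure D5:**
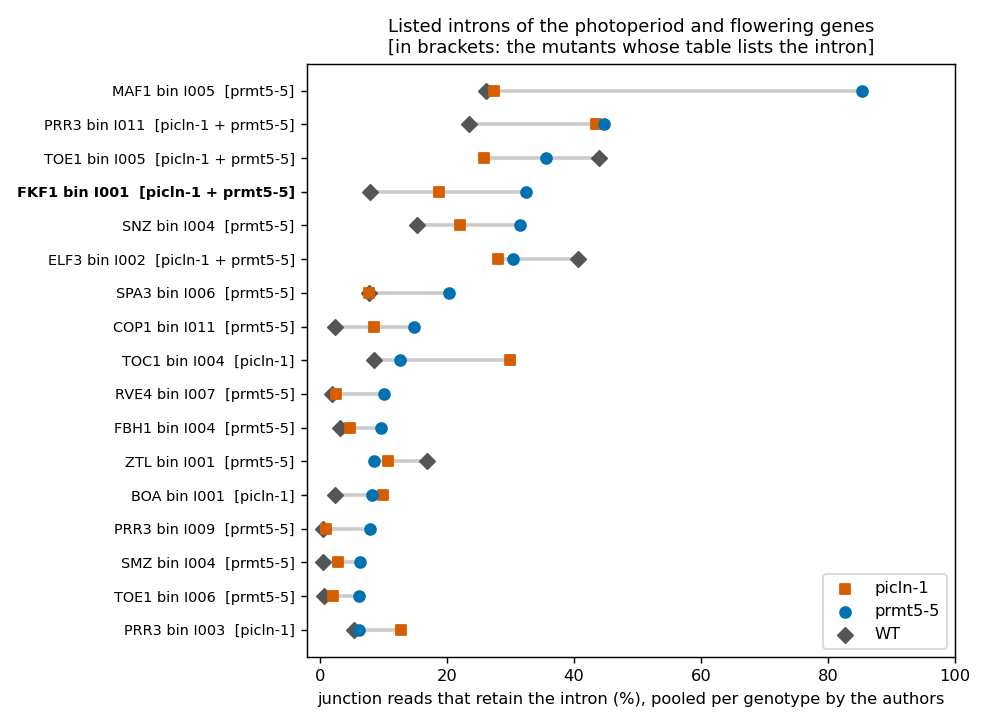
Share of junction reads that retain each of the 17 listed introns of the 70 pathway genes, in picln-1 (squares), prmt5-5 (circles) and WT (diamonds), as pooled by the authors; names in brackets give the table that lists the intron, and bin names count introns along the chromosome. The FKF1 intron (bold) is at 18.7% in picln-1, 32.5% in prmt5-5 and 7.89% in WT.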

How the data were processed

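Polyadenylated RNA of 12 seedling libraries had been aligned with TopHat to TAIR10, per the submitters' processing notes; no source used here names the counting and testing programs. The deposited tables give log2 changes of mutant over WT, p-values with adjusted values, and, for bins, a fraction of junction reads per genotype pooled by the authors, per the file headers; fractions were multiplied by 100. Base 2 was inferred from the smallest listed gene change. The number of features tested was recovered from adjusted over raw p, which gives a whole-number rank (tolerance 0.001), and the step was tested on simulated data. Sequences, introns and gene starts come from RefSeq TAIR10.1; start and end of the listed intron bins matched an annotated intron in 99.4% (picln-1) and 99.7% (prmt5-5) of cases. Splice sites were scored with a log-odds matrix over 9 bases. Members and gene lists were chosen with earlier results of these data known; values are given for all members, every listed pathway gene, listed neighbours of members, the mutated genes, and the 5 nearest to CDF1; some pathway genes with no entry are named only as such, chosen after the tables were seen. The genes' own counts per library were not analysed here, so no test per gene was run. The planned RefSeq promoter table was replaced by the same window read from the genome. Of the 70 loci, 70 were in the annotation. Python 3.11.15, numpy 2.4.6, pandas 2.3.3, scipy 1.17.1 and matplotlib 3.10.9 were used.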

Additional observations from a re-analysis of the deposited data

How the results depend on the processing

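No paired analysis was possible because the tables hold no values per library, and for the same reason the fits without each replicate were not run. With a log2 change of at least 1 required, listed members numbered 0 in picln-1 and 2 in prmt5-5 (GI and FT), and listed pathway genes 1 and 3. The FKF1 intron was lost in picln-1 at an adjusted p below 0.05 and below 0.01 (0 bins at each) and kept in prmt5-5 at both. Listed pathway bins fell to 3 in picln-1 and 11 in prmt5-5 at an adjusted p below 0.01, and to 5 and 9 with a change of the fraction above 0.1. With the t distribution, the intervals of the differences between the mutants (-0.25 for CDF1, -0.60 for FKF1 usage) no longer held 0. The second difference was chosen after seeing the data. The t reading is a poor guide, since a p as small as that of GI in prmt5-5 could hardly arise with 6 degrees of freedom. Over annotated loci, 0.732% and 4.02% of genes were listed in picln-1 and prmt5-5. On the strand of the gene alone, 419 promoters held the evening element against 773 on both strands, and 1987 in the window of 1000 bases, chosen after seeing the data. The other alternatives changed no count by over 1.5 times. Depth is unknown, so genes not listed have no limit.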
